A study of Mus musculus with 36 samples.

Results

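The unfolded protein response and the integrated stress response were followed through 34 genes in the liver and the eWAT (epididymal white adipose tissue, a visceral fat depot) of mice on 3 diets. The genes were taken from a list of symbols, and each symbol was matched to its Ensembl identifier in the count table of each tissue. All 34 genes were present in both tables, among 14052 genes in liver and 16690 in eWAT.

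All mice were wild-type C57BL/6 males of the founder generation (F0), aged 24 weeks, which had eaten chow from weaning until 6 weeks of age. From then on LF mice had 18 weeks of low-fat diet. HF mice had 18 weeks of high-fat diet, which the labels also write as HLD. HFLF mice had 9 weeks of high-fat and then 9 weeks of low-fat diet. Each diet and tissue had 6 libraries, 36 in all, although the series text gives 4 to 6 per group. The labels do not say that each library came from a separate mouse, so p-values measure the spread between these libraries only, part of which may be technical.

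Proteins for export and for membranes fold in the endoplasmic reticulum (ER). When unfolded proteins accumulate there, the membrane sensors IRE1 (gene Ern1), PERK (Eif2ak3) and ATF6 (Atf6) are released from the chaperone BiP (Hspa5). IRE1 splices the RNA of Xbp1, ATF6 is cut to free a transcription factor, and PERK slows translation by phosphorylating eIF2alpha, which favours translation of ATF4 (Atf4). The hepatocyte secretes most plasma proteins and the adipocyte secretes adipokines, so both hold much ER. The counts are per gene, so they do not show Xbp1 splicing, ATF6 cleavage or phosphorylation.

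XBP1 and ATF6 are known to act through the ER stress element, CCAAT and CCACG separated by 9 bases of any kind. It was searched on both strands in RefSeq promoter windows of build GRCm38.p6, which run from 250 bases before to 50 bases after each gene's start. A window was held for 30 of the 34 genes (not for Atf6, Hyou1, Manf and Derl1). The element stood in 10 of these 30 windows and in 0.119% of all 32851 promoter windows. The sequences below show where the members share it, each with 20 bases on either side, 5′ to 3′ on the gene's own strand and with the element in capitals. An element on the opposite strand reads CGTGG, 9 bases, ATTGG.
Hspa5 (chr2:34772005-34772063, plus strand): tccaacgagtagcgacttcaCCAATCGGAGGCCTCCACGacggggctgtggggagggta
Hsp90b1 (chr10:86705513-86705676, minus strand, 2 elements): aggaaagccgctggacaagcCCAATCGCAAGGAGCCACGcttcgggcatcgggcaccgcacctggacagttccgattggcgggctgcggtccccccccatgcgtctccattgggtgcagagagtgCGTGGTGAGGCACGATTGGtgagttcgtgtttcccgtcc
Dnajc3 (chr14:118937807-118937865, plus strand): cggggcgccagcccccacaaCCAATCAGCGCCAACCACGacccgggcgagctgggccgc
Calr (chr8:84847055-84847113, minus strand): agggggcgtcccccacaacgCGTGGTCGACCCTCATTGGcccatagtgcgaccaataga
Canx (chr11:50325780-50325838, minus strand): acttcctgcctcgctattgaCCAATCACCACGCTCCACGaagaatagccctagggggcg
Pdia6 (chr12:17266471-17266529, plus strand): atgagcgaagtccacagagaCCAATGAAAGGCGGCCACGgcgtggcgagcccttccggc
Ero1lb (chr13:12565662-12565720, plus strand): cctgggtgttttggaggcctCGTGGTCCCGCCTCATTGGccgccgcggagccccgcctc
Syvn1 (chr19:6046512-6046570, plus strand): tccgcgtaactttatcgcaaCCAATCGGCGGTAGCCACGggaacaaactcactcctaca
Derl3 (chr10:75893222-75893280, plus strand): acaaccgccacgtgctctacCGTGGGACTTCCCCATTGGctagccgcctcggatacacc
Creld2 (chr15:88819500-88819558, plus strand): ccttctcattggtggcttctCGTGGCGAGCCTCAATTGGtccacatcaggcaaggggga

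The 10 genes belong to 5 of the roles distinguished here, and each element lay before the start, that of Hspa5 at 65 to 47 bases and that of Syvn1 at 44 to 26 bases before it. A pair of shorter motifs was searched on both strands too, and neither overlapped an ER stress element in a member window. TGACGTG, a core bound by ATF6 and XBP1, stood in 1 member window (Hspa5, 157 to 151 bases before the start) and in 2.012% of all windows. TGATGNAA, the core of the amino acid response element used by ATF4, stood in 4 member windows (Asns, Chac1, Herpud1 and Trib3) and in 3.969% of all windows. A match describes the letters in the window and is not evidence that a factor binds there.

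Liver libraries held between 11.66 M and 23.3 M counts (M, mega; median 18.42 M), and eWAT libraries between 8.942 M and 31.19 M (median 19.03 M). Hepatocyte markers dominated the liver libraries, where their 8 genes summed to 75260 to 117400 CPM (counts scaled to the same library total), and summed to 17.97 to 1076 CPM in eWAT. Adipocyte markers summed to 12500 to 51440 CPM over 8 genes in eWAT, and of these Adipoq, Plin1, Lep and Retn were not in the liver table. In liver the other 4 summed to 23.87 to 43.03 CPM in LF, 42.6 to 230.1 CPM in HF and 38.5 to 50.32 CPM in HFLF. They were highest in HF libraries 1 and 4 (230.1 and 207.6 CPM). Libraries stood apart in both tissues. In liver, the metallothionein Mt2 was at 353.7 to 422.3 CPM in LF libraries 1 to 4 and at 0.8923 to 9.328 CPM in the other liver libraries of the LF and HF groups, and at 0.6009 to 2.224 CPM in HFLF. Acute phase genes, 26 summed, stood at 50680 to 75480 CPM in the same 4 libraries. Their sum was 24060 to 29120 CPM in the remaining LF pair, 20780 to 29230 CPM in HF and 22680 to 27850 CPM in HFLF. In eWAT, Crisp1, the 1 epididymal marker of 8 in the table, was highest in LF library 3 (218.4 CPM), and the 8 hepatocyte markers were highest in LF library 5 (1076 CPM). Counts of members that passed are given with and without liver LF libraries 1 to 4, and with and without 6 eWAT libraries named below.

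In liver LF libraries, levels per length (CPM per kilobase of exon) were highest for the disulfide isomerase P4hb (544.7 on average over 6 libraries), the lectin chaperone Calr (459.5) and the BiP gene Hspa5 (353.5). They were lowest for Asns (2.46), Trib3 (3.213) and Wfs1 (3.798). Among the sensors and transcription factors Xbp1 was at 141.3 CPM per kilobase, above the disulfide isomerase Pdia6 (134.9), and Eif2ak3 was at 5.693. In eWAT LF libraries Calr (202.4 CPM per kilobase), P4hb (149.8) and Hspa5 (127.2) were again the highest and Derl3 the lowest (0.915). Between tissues, which were scaled separately and were not tested for level, Herpud1 stood at 335.9 CPM per kilobase in liver and 39.62 in eWAT, and Asns at 2.46 in liver and 24.67 in eWAT. Neighbours in these orders overlapped: P4hb ran from 480.6 to 588.6 and Calr from 343.3 to 542.8 CPM per kilobase over the 6 liver LF libraries.

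Each liver LF library was set against the range of the 12 HF and HFLF libraries, on CPM scaled with TMM factors (trimmed mean of M values, which corrects for differences in RNA composition). LF library 1 lay above the highest HF or HFLF library in 20 of the 34 genes, beside 24.1% of all liver genes. LF library 2 lay above it in 27 genes, beside 22.2% of all genes, and LF library 3 in 20, beside 17.7%. LF library 4 lay above it in 25 genes, beside 18.5% of all genes. LF library 5 lay above it in 8 genes, beside 8.07% of all genes, and LF library 6 in 18, beside 12%. All 6 LF libraries lay above the range in 5 genes (Hspa5, Canx, Hyou1, Edem1 and Manf), beside 1.44% of all genes. LF libraries 1 to 4 all lay above it in 11 genes, beside 7.21% of all genes. In bulk tissue, fewer cells of a type and less RNA per cell cannot be told apart.

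**Figure D1:**
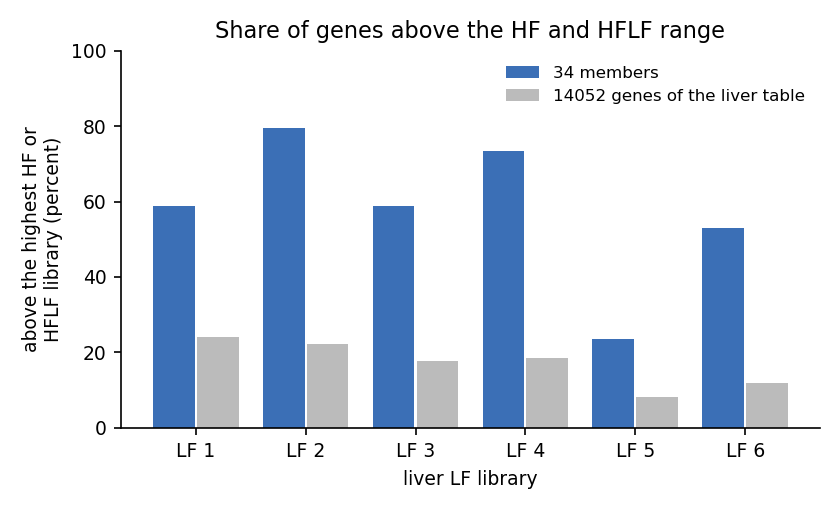
Bars give the share of the 34 unfolded protein and integrated stress response genes (blue) and of all 14052 liver genes (grey) that lay above the highest of the 12 HF and HFLF libraries, for each liver LF library. LF library 2 lay above it in 79.4% of the 34 genes and LF library 5 in 23.5%.

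The position of a library differed between genes, also within a role. Among the sensors and transcription factors, Eif2ak3, the PERK gene, was at 88.27, 44.19, 16.16, 21.88, 16.57 and 18.79 CPM in LF libraries 1 to 6, with HF at 12.33 to 20.45 CPM and HFLF at 10.66 to 16.47 CPM. LF libraries 1, 2 and 4 lay above that range and the others within it. Atf4, the transcription factor of the integrated stress response, was at 155.6, 121.3, 104.2, 110.3, 100.5 and 85.44 CPM in LF, with HF and HFLF together at 69.16 to 114.5 CPM. It lay above the range in LF libraries 1 and 2 alone. Ddit3, which encodes the transcription factor CHOP and shares exon bases with Mars and other genes, exceeded a range of 5.419 to 11.02 CPM in LF libraries 1, 2 and 6, at 16.99, 13.53 and 11.66 CPM. Its other 3 LF libraries, at 6.441 to 8.982 CPM, lay within the range. Ppp1r15a, the phosphatase subunit that restores eIF2alpha, was at 39.66 CPM in LF library 1 and 22.74 CPM in LF library 2, then 14.46, 15.13, 11.29 and 11.77 CPM, against 7.886 to 13.52 CPM. LF libraries 1 to 4 lay above that range. These 4 genes, Eif2ak3, Atf4, Ddit3 and Ppp1r15a, all had their highest LF level in library 1, as did Chac1. That library was the highest of LF in 5 of the 34 genes, a smaller share than its 21.6% of all liver genes. Of the other sensors and ATF4 targets, Atf6 was highest in library 2, Xbp1 and Asns in library 3, and Ern1 and Trib3 in library 6.

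Some folding genes had another order. Hsp90b1, the ER chaperone GRP94, was at 940.7, 1350, 1658, 1705, 1183 and 1341 CPM in LF libraries 1 to 6, with HF and HFLF together at 646.6 to 1313 CPM. LF library 1 lay within the range, and libraries 2, 3, 4 and 6 above it. Calr, a calcium-binding lectin chaperone, was at 988.6, 1126, 1557, 1563, 1297 and 1408 CPM, against 734.9 to 1303 CPM, and lay above the range in LF libraries 3, 4 and 6. The disulfide isomerase Pdia3 lay above its range in the same 3 libraries, at 750.1, 822.3 and 708 CPM against 342.4 to 677.8 CPM. LF library 6, whose acute phase level was within that of the HF group, was above the HF and HFLF range in Calr, Pdia3, Hsp90b1, Pdia4, Pdia6, Dnajb11 and Sdf2l1. LF library 5, whose acute phase level was also within that of the HF group, lay within the range in each of these genes. Other folding genes lay above their range in LF library 1 as well, among them Hspa5, Hyou1, Dnajb9, Canx and Ero1lb, and the first 3 of these were highest in library 2. No test was made of an order by role.

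Herpud1, an ER membrane protein of the degradation pathway, was at 991.3, 1006 and 933.7 CPM in LF libraries 1, 2 and 6, above a range of 286.5 to 790.5 CPM, and within it in the others. Xbp1 lay above its range of 147.6 to 406.7 CPM in LF libraries 1 to 5 (438.4 to 622.2 CPM) and within it in library 6 (273.2 CPM). No LF library lay above the range in P4hb, Derl3 or Trib3. Trib3, a pseudokinase that restrains ATF4, went the other way: LF libraries 1 to 4, at 4.626 to 5.833 CPM, lay below its range of 5.982 to 20.94 CPM. Chac1, a glutathione-degrading ATF4 target, lay above its range in LF libraries 1 and 5 (17.5 and 15.33 CPM) and below it in library 6 (2.119 CPM).

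**Figure D2:**
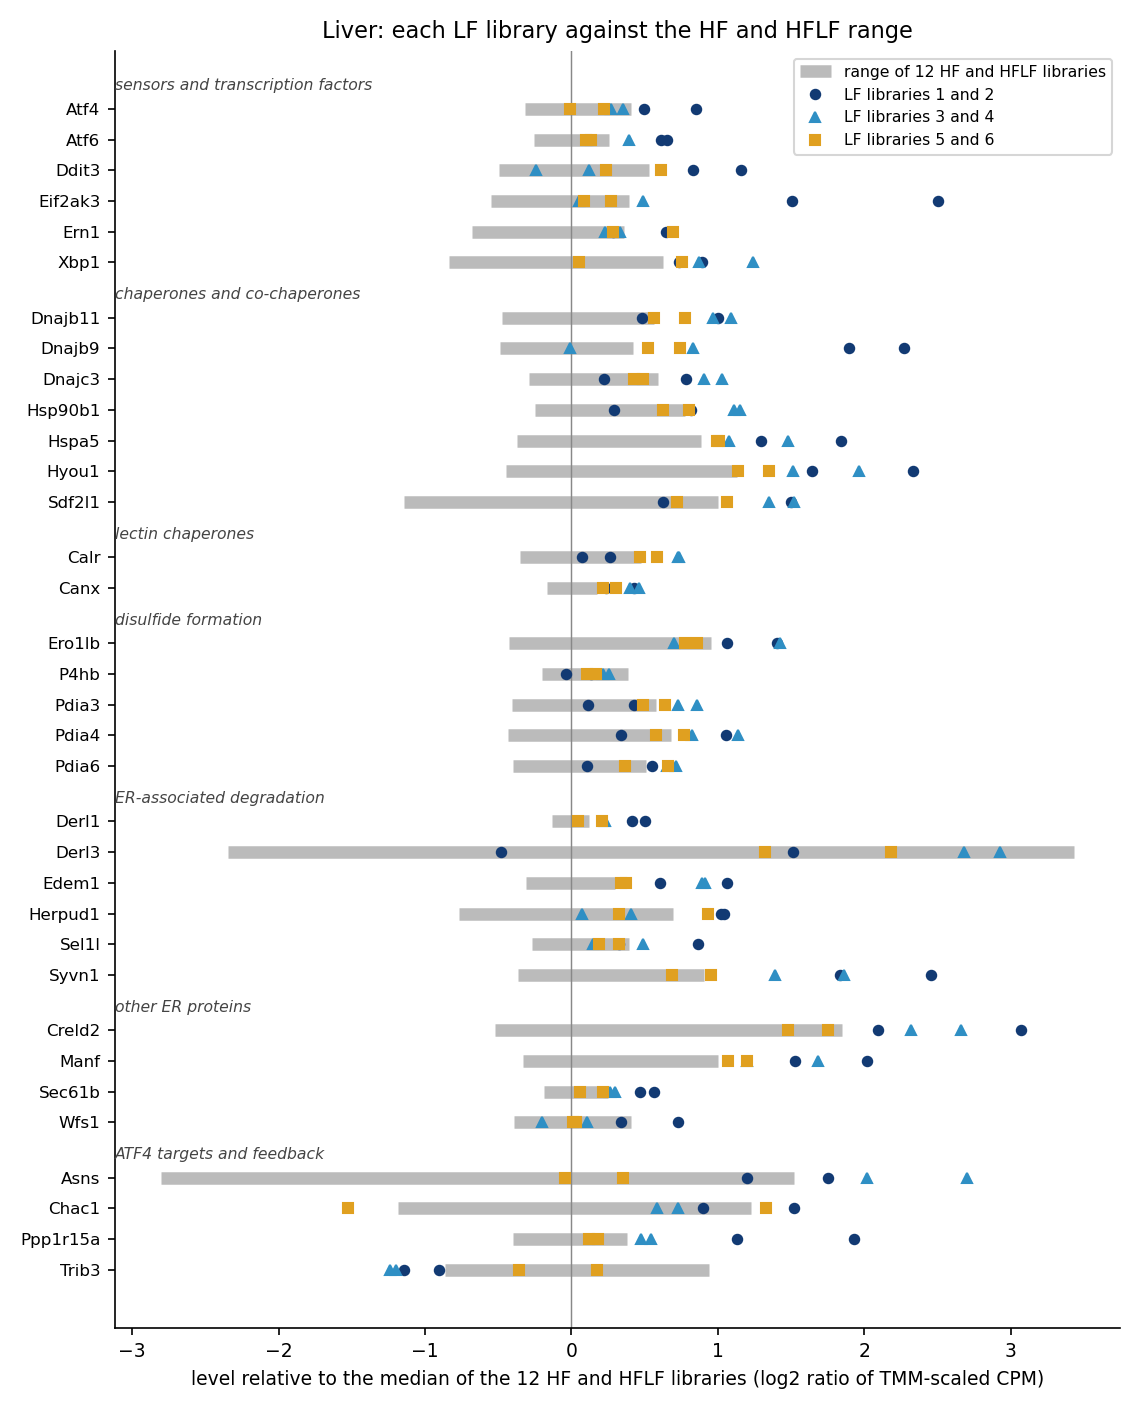
Each row is 1 gene, grouped by role. Grey bars span the 12 HF and HFLF liver libraries and symbols give the 6 LF libraries, as log2 ratios of TMM-scaled CPM to the median of the 12. All LF symbols lie right of the bar for Hspa5, Canx, Hyou1, Edem1 and Manf, and 4 lie left of it for Trib3.

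HF was compared with LF in liver to ask how prolonged high-fat feeding relates to these genes. By edgeR's quasi-likelihood test with Benjamini-Hochberg adjustment over all liver genes, 26 of the 34 genes were lower in HF and 1 was higher, at an adjusted p of 0.05. Over all liver genes 34.8% passed, 18.5% lower and 16.3% higher. The median log2 fold change was -0.58 over the 34 genes and 0.0006 over all genes. In 9 genes all 6 HF libraries lay below all 6 LF libraries, and groups did not overlap in 11% of all liver genes.

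All 7 chaperones and co-chaperones fell, the co-chaperones being Dnajb9, Dnajb11, Dnajc3 and Sdf2l1. Hspa5, the BiP gene, was at 1475, 2151, 1266, 1674, 1208 and 1195 CPM in LF libraries 1 to 6. In HF it was at 495.4 to 1108 CPM with a median of 652.8 CPM. The groups did not overlap, and the log2 fold change was -1.11 ± 0.22 (SE, n = 6 per group, adjusted p = 0.00147, edgeR). Hyou1, an ER chaperone induced by low oxygen, was at 365.1 to 833.8 CPM in LF (median 495.2) and 121.3 to 354 CPM in HF (median 197.8), again without overlap. Its log2 fold change was -1.38 ± 0.32 (adjusted p = 0.00369, edgeR). Dnajb11, a co-chaperone of BiP, fell by 0.66 ± 0.15 on the log2 scale (adjusted p = 0.00404, edgeR), from a median of 206.4 CPM in LF to 124 CPM in HF, and HF library 5 (166.7 CPM) overlapped the LF group.

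Sensors and transcription factors fell in 5 of 6. Xbp1 was at 438.4, 489.9, 622.2, 482.9, 446.4 and 273.2 CPM in LF and at 147.6 to 294.3 CPM in HF (median 219.3). LF library 6 overlapped HF, and the log2 fold change was -1.06 ± 0.18 (adjusted p = 0.000446, edgeR). Ern1, the IRE1 gene, was at 113.1 to 155.8 CPM in LF (median 119.5) and at 60.11 to 100.1 CPM in HF (median 78.67). Every HF library lay below every LF library, with a log2 fold change of -0.73 ± 0.12 (adjusted p = 0.00045, edgeR). Atf6 had a log2 fold change of -0.44 ± 0.10 (adjusted p = 0.00263, edgeR) and no overlap, with LF at 75.3 to 110.5 CPM and HF at 58.65 to 70.71 CPM. Atf4 had one of -0.53 ± 0.12 (adjusted p = 0.00388, edgeR), and HF library 6 (100.3 CPM) reached the LF range of 85.44 to 155.6 CPM. Ddit3 did not pass, at -0.35 ± 0.19 on the log2 scale (adjusted p = 0.172, edgeR).

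**Figure D3:**
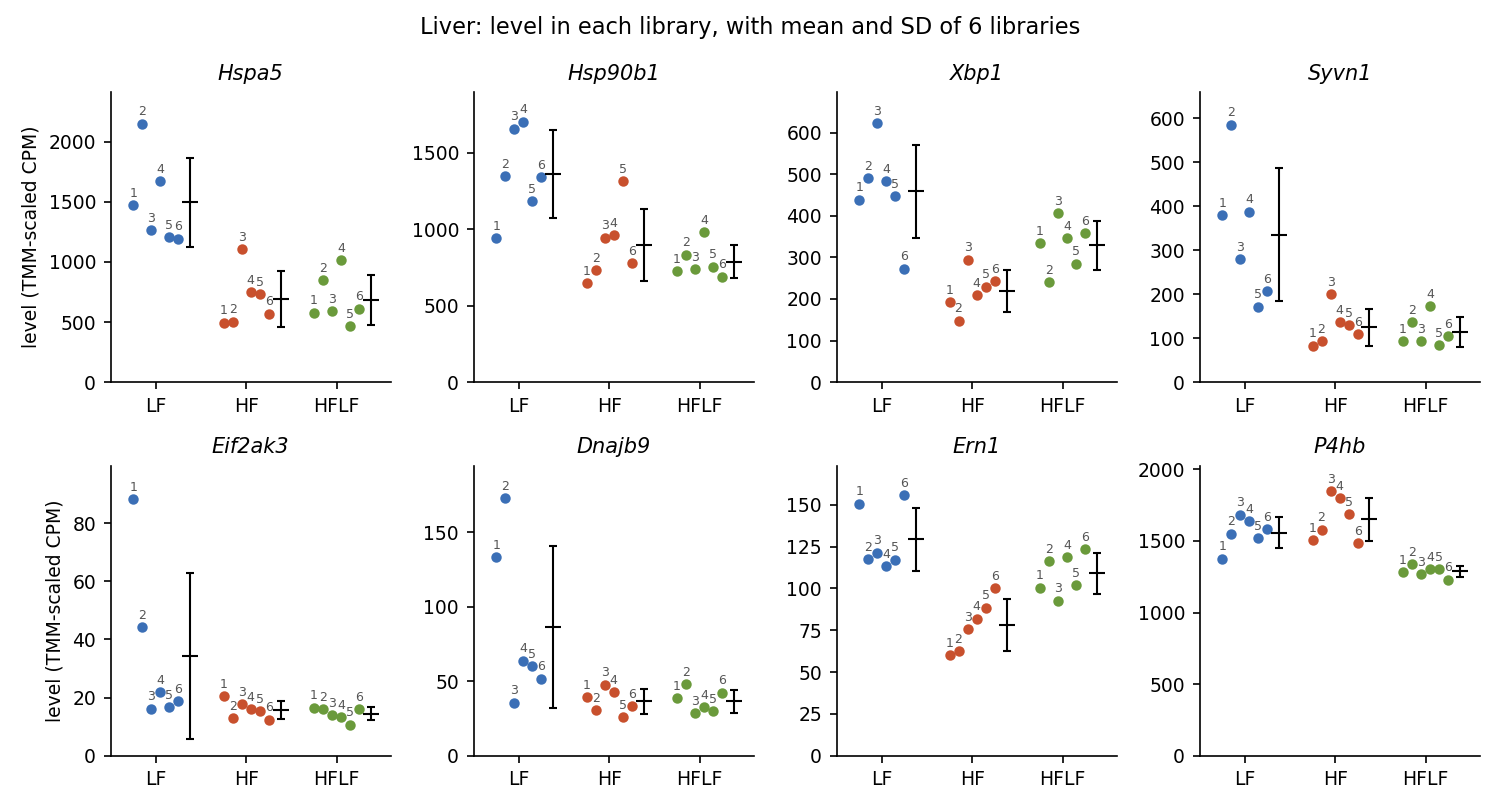
Points are the TMM-scaled CPM of 8 genes in each liver library, numbered 1 to 6 within LF, HF and HFLF, and black marks give the mean and SD of 6 libraries. Hspa5 in LF lies wholly above HF and HFLF, Eif2ak3 and Dnajb9 in LF are spread mainly by libraries 1 and 2, and P4hb in HFLF lies wholly below HF.

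Of the genes for ER-associated degradation, by which misfolded proteins are drawn out of the ER and destroyed, 4 of 6 fell. Edem1, which recognizes trimmed mannose on misfolded glycoproteins, was at 205.7 to 339.7 CPM in LF (median 275.1) and 131.7 to 173.2 CPM in HF (median 162.1). The groups did not overlap, and the log2 fold change was -0.75 ± 0.12 (adjusted p = 0.000257, edgeR). Syvn1, the ubiquitin ligase HRD1, which shares exon bases with Mrpl49, was at 380.6, 586.1, 280, 388.2, 171.8 and 206.6 CPM in LF and at 82.81 to 200 CPM in HF (median 118.9). LF library 5 overlapped HF, and the log2 fold change was -1.43 ± 0.28 (adjusted p = 0.00158, edgeR). Herpud1 did not pass (-0.44 ± 0.19 on the log2 scale, adjusted p = 0.0839, edgeR), nor did Derl3, a derlin of secretory cells whose HF libraries ran from 2.895 to 61.78 CPM.

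Both lectin chaperones fell. Canx was at 437.5 to 519 CPM in LF and 338.4 to 425.9 CPM in HF, without overlap, with a log2 fold change of -0.32 ± 0.07 (adjusted p = 0.00334, edgeR). Of the 5 genes for disulfide formation 4 fell, among them the oxidase Ero1lb at -0.95 ± 0.22 on the log2 scale (adjusted p = 0.0041, edgeR). P4hb did not pass, at 1375 to 1684 CPM in LF and 1484 to 1846 CPM in HF. Of the other ER genes 3 of 4 fell, among them Manf, a secreted ER stress protein that shares exon bases with Rbm15b and Dcaf1, at -1.17 ± 0.25 on the log2 scale (adjusted p = 0.00225, edgeR), without overlap. The translocon subunit Sec61b and the ER stress protein Creld2 also fell, while Wfs1, a membrane protein of the ER, did not pass.

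The 4 ATF4 targets and feedback genes did not move together. Ppp1r15a fell, with LF at 11.29 to 39.66 CPM and HF at 7.886 to 11.02 CPM. Trib3, named after its values were seen, was the 1 gene that rose, from 4.626 to 12.32 CPM in LF (median 5.379) to 8.7 to 17.69 CPM in HF (median 11.5), with a log2 fold change of 0.83 ± 0.31 (adjusted p = 0.0481, edgeR). It no longer passed when any 1 of LF libraries 1 to 4 or of HF libraries 1, 2, 4, 5 and 6 was left out. Asns, asparagine synthetase, was at 5.015, 7.364, 14.23, 8.842, 2.797 and 2.119 CPM in LF and at 0.3129 to 6.284 CPM in HF, and did not pass (-1.52 ± 0.62 on the log2 scale, adjusted p = 0.0653, edgeR).

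Without LF libraries 1 to 4, which leaves 2 LF libraries, 1 of the 27 calls remained, that of Ern1, all 27 log2 fold changes kept their sign, and 13 of the 34 genes had an unadjusted p under 0.05. The number of liver genes called fell from 4891 to 297 in that fit. The member medians moved unequally by role. The chaperones and co-chaperones went from -0.85 to -0.58 on the log2 scale, the disulfide genes from -0.382 to -0.385 and the lectin chaperones from -0.33 to -0.30. The sensors went from -0.63 to -0.25 and the ATF4 targets from -0.81 to -0.15, while the 26 acute phase genes went from -1.39 to 0.08. Hspa5 had a log2 fold change of -0.79 and Xbp1 one of -0.71 in that fit (adjusted p = 0.164 and 0.11, edgeR). Without LF libraries 1 and 2 alone, 19 of the 27 calls remained, where 1245 of all liver genes were higher and 1497 lower. Other measures moved with these libraries. The clock gene Dbp was at 2.558, 5.155, 73.31, 62.86, 90.79 and 133.2 CPM in LF libraries 1 to 6, at 131.4 to 182.1 CPM in HF and at 88.16 to 169.7 CPM in HFLF. LF libraries 1 to 4 lay below all HF and HFLF libraries, and libraries 1 and 2 far below the rest. The 16 clock genes summed to 533.5 to 752 CPM in LF libraries 1 to 4, to 834.8 and 1139 CPM in libraries 5 and 6, to 949.4 to 1191 CPM in HF and to 691.6 to 1116 CPM in HFLF. Of these genes 6 were higher and 2 lower in HF than in LF (median 0.54 in log2), and 0 passed without LF libraries 1 to 4 (median 0.10). The mesothelial list (4 of 6 genes in the table, Msln, Upk3b, Krt18 and Wt1, with Lrrn4 and Bnc1 absent) also had a higher sum in LF libraries 1 to 4. It was 207.5 to 505.5 CPM there, against at most 174.3 CPM in every other liver library. The sum was not split by gene, so it does not show which of the 4 genes differed or whether mesothelial cells did. The part of the acute phase, clock and mesothelial genes in the members' differences was not tested.

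HFLF was compared with LF to ask whether 9 weeks of low-fat diet after high-fat diet left these genes different from 18 weeks of low-fat diet. In liver 25 of the 34 genes were lower and 0 higher (edgeR), beside 22.6% of all genes, 12.4% lower and 10.2% higher. At an unadjusted p under 0.05 there were 30, and the median log2 fold change was -0.73. Groups did not overlap in 8 genes, all lower in HFLF, beside 6.15% of all genes. This comparison shares the LF libraries with the one of HF.

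All 7 chaperones, both lectin chaperones and all 5 disulfide genes fell in HFLF. Hspa5 was at 463.9 to 1016 CPM in HFLF (median 599.8), below every LF library, with a log2 fold change of -1.13 ± 0.22 (adjusted p = 0.00264, edgeR). Dnajb11 was at 81.21 to 153.2 CPM in HFLF, also without overlap, with one of -0.89 ± 0.16 (adjusted p = 0.00129, edgeR). The log2 fold changes were -0.79 ± 0.16 for Hsp90b1, -0.59 ± 0.13 for Calr, -0.40 ± 0.07 for Canx and -0.86 ± 0.18 for Pdia4, a disulfide isomerase. Those of Dnajc3, an inhibitor of PERK and a co-chaperone, and of Hyou1 were -0.66 ± 0.15 and -1.43 ± 0.32. Of the sensors and transcription factors 2 of 6 passed, Ddit3 and Eif2ak3, both lower.

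Herpud1 was at 286.5 to 555.4 CPM in HFLF (median 360.2) and 512.2 to 1006 CPM in LF (median 790.9). Only LF library 3 lay inside the HFLF range, and the log2 fold change was -0.997 ± 0.20 (adjusted p = 0.00264, edgeR). The log2 fold changes were -1.55 ± 0.28 for Syvn1, -0.66 ± 0.12 for Edem1, -1.21 ± 0.25 for Manf and -0.70 ± 0.20 for Ddit3 (adjusted p = 0.0169, edgeR). Xbp1 did not pass (-0.48 ± 0.18, adjusted p = 0.0546), and neither did Atf4 (-0.26 ± 0.12, adjusted p = 0.135) or Asns (-1.38 ± 0.62, adjusted p = 0.114), all in log2 by edgeR. Without LF libraries 1 to 4, 0 of the 25 calls remained, all 25 kept their sign, 18 genes had an unadjusted p under 0.05, and the median over the 34 genes was -0.52. Over all 14052 liver genes 19 were higher and 7 lower in that fit, against 1432 and 1744 with all libraries. The chaperones went from a median of -1.13 to -0.73.

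HFLF was compared with HF in liver to ask what the return to low-fat diet changed. By edgeR 1 gene rose and 1 fell, beside 5.23% of all genes, and 5 had an unadjusted p under 0.05. Groups did not overlap in 1 gene, beside 3.86% of all genes. P4hb was at 1230 to 1340 CPM in HFLF (median 1291) and at 1484 to 1846 CPM in HF (median 1633). Every HFLF library lay below every HF library, with a log2 fold change of -0.36 ± 0.07 (adjusted p = 0.0116, edgeR).

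Ern1 was at 92.73 to 123.6 CPM in HFLF (median 109.2), higher than HF by 0.48 ± 0.12 on the log2 scale (adjusted p = 0.0304, edgeR), with HF library 6 (100.1 CPM) inside the HFLF range. It no longer passed without any of HF libraries 1 to 4 or HFLF libraries 4 to 6. Xbp1 had a median of 340.5 CPM in HFLF and 219.3 CPM in HF and did not pass (0.58 ± 0.18, adjusted p = 0.0584). Hspa5 differed by -0.02 ± 0.22, Atf4 by 0.27 ± 0.12, Ddit3 by -0.36 ± 0.20, Herpud1 by -0.55 ± 0.19 and Asns by 0.14 ± 0.65 on the log2 scale, and none of them passed in edgeR.

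In eWAT the comparison of HF with LF went the other way for most genes. By edgeR 17 of the 34 genes were higher in HF and 5 lower, beside 40.8% of all eWAT genes, 20.6% higher and 20.2% lower. The median log2 fold change was 0.30 over the 34 genes and -0.02 over all genes. Groups did not overlap in 11 genes, 9 of them higher in HF, beside 15.8% of all genes.

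Folding genes rose: 4 of 7 chaperones, both lectin chaperones and 4 of 5 disulfide genes passed, all higher. P4hb was at 374.2 to 468.7 CPM in LF (median 438.1) and 530 to 678.1 CPM in HF (median 601.2). The groups did not overlap, and the log2 fold change was 0.50 ± 0.08 (adjusted p = 0.000209, edgeR). Pdia3 (301.2 to 345 CPM in LF, 362.1 to 632 CPM in HF) and Calr (544.9 to 620.2 CPM in LF, 628.1 to 1152 CPM in HF) were also without overlap, at 0.56 ± 0.10 and 0.57 ± 0.12 on the log2 scale. Sdf2l1, a partner of BiP and its co-chaperones, was at 16.31 to 23.79 CPM in LF and 25.28 to 100.4 CPM in HF, with a log2 fold change of 1.37 ± 0.26 (adjusted p = 0.000579, edgeR). Hspa5 was at 483.3 to 609.4 CPM in LF (median 522.1) and 560.1 to 1051 CPM in HF (median 708.2). HF library 5 overlapped LF, and the log2 fold change was 0.46 ± 0.13 (adjusted p = 0.00795, edgeR). Dnajb11 rose by 0.43 ± 0.09.

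The largest difference among the 34 genes by fold was that of Wfs1, the wolframin gene. It was at 23.51 to 36.54 CPM in LF (median 31.88) and at 131.8, 85.31, 253.9, 153.5, 44.06 and 66.37 CPM in HF libraries 1 to 6. Every HF library lay above every LF library, with libraries 5 and 6 nearest to them, and the log2 fold change was 1.98 ± 0.36 (adjusted p = 0.000429, edgeR). Atf6 rose by 0.37 ± 0.06 on the log2 scale and Ddit3 by 0.42 ± 0.11 (adjusted p = 0.00567, edgeR), and Eif2ak3 also passed, higher. The degradation genes Sel1l, an adaptor of the HRD1 ligase, and Edem1 rose by 0.49 ± 0.09 and 0.68 ± 0.14.

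The 5 genes that fell were Xbp1, Herpud1, Derl1, Asns and Chac1. For Xbp1 the LF libraries in order read 345, 355.8, 325.6, 226.3, 233.4 and 253.2 CPM, and HF lay at 163.9 to 225.6 CPM (median 178.3). The groups did not overlap, HF library 3 (225.6 CPM) and LF library 4 (226.3 CPM) being adjacent, and the log2 fold change was -0.62 ± 0.14 (adjusted p = 0.00171, edgeR). Asns was at 50.98 to 81.88 CPM in LF (median 67.92) and at 20.59 to 43.75 CPM in HF (median 32.95), without overlap, at -1.01 ± 0.17 on the log2 scale (adjusted p = 0.000284, edgeR). Herpud1 was at 83.65 to 104.5 CPM in LF and 65.76 to 86.6 CPM in HF, where only HF library 2 reached the LF range, at -0.37 ± 0.08 (adjusted p = 0.00186, edgeR). Derl1, a derlin of the degradation channel, was at 224.8 to 382.6 CPM in LF and 150.7 to 260.3 CPM in HF, and Chac1 at 8.923 to 16.66 CPM in LF and 5.355 to 9.593 CPM in HF. Atf4 did not pass (-0.05 ± 0.13).

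**Figure D4:**
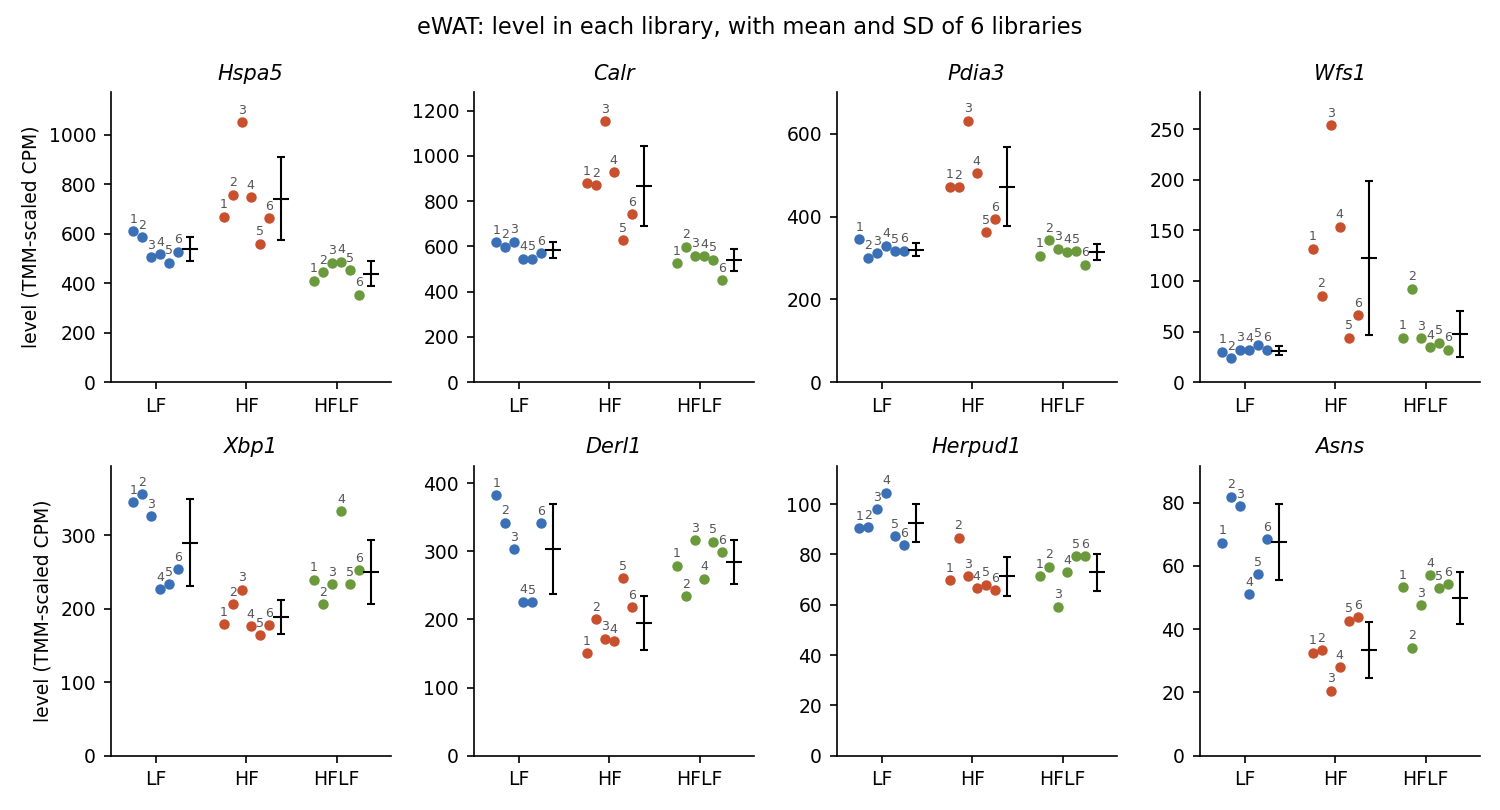
Points are the TMM-scaled CPM of 8 genes in each eWAT library, numbered 1 to 6 within LF, HF and HFLF, and black marks give the mean and SD of 6 libraries. In Hspa5, Calr, Pdia3 and Wfs1 HF library 3 lies highest of all and HF library 5 lowest in its group, and the HF means of Xbp1, Derl1 and Asns lie below those of LF and HFLF.

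HF library 3 was the highest of the 6 HF libraries in 23 of the 34 genes, beside 27.2% of all eWAT genes, and HF library 5 the lowest in 16, beside 23.3%. Markers of cell types moved with the same libraries. The 7 macrophage markers in the table (Clec4f was not in it) summed to 421.8 to 819.8 CPM in LF and to 3631, 2309, 5928, 4135, 984.3 and 1274 CPM in HF libraries 1 to 6. The 6 fibroblast and stellate markers summed to 2002 to 3058 CPM in LF and 3613 to 13960 CPM in HF, the highest again in library 3. Adipocyte markers summed to 27680 to 51440 CPM in LF and 12500 to 32820 CPM in HF, the lowest in library 3. Plasma and B cell markers, 7 of 8 in the table, were highest in HF library 2 (208.2 CPM), where the derlin Derl3 was also highest (8.285 CPM). The 16 clock genes summed to 857.5 to 1171 CPM in LF, 567 to 780.5 CPM in HF and 804 to 1331 CPM in HFLF, and 9 of them were lower and 0 higher in HF than in LF. The part of these cell types and of the clock genes in the members' differences was not tested.

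An alternative chosen after seeing the data left out the 5 libraries with the most Crisp1 and that with the most hepatocyte markers. These were numbers 3, 4 and 5 of LF, number 1 of HF and numbers 4 and 6 of HFLF. Crisp1 was at 218.4 CPM in LF library 3, 7.054 CPM in HFLF library 4 and 5.16 CPM in HF library 1. It was at only 0.9995 CPM in HFLF library 6 and 0.7236 CPM in LF library 4, near the 0.5754 CPM of HFLF library 5, which was kept. Over all 16690 eWAT genes 2770 were higher and 2433 lower without these 6 libraries, against 3441 and 3376 with all libraries. Of the 22 calls among the 34 genes 14 remained in that fit, 11 higher and 3 lower, and the median was 0.31. Wfs1, Atf6, Sel1l, Edem1, P4hb, Pdia3, Calr, Sdf2l1, Dnajb11, Xbp1 and Asns remained. Hspa5 (adjusted p = 0.103, edgeR), Ddit3 (0.142) and Herpud1 (0.0575) no longer passed, with log2 fold changes of 0.40, 0.26 and -0.30.

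HFLF did not differ from LF in eWAT in any of the 34 genes by edgeR, where 0.563% of all genes passed. In the fit without the 6 eWAT libraries 0 passed by edgeR, and 7 had an unadjusted p under 0.05. Of all eWAT genes 4 were higher and 2 lower in that fit. With all libraries 10 had an unadjusted p under 0.05, DESeq2 called 4 (Dnajb9, Herpud1, Manf and Creld2) and limma voom called 8. Herpud1 was the 1 gene without overlap, beside 2.56% of all genes, at 59.18 to 79.4 CPM in HFLF against 83.65 to 104.5 CPM in LF (-0.34 ± 0.08 on the log2 scale, adjusted p = 0.0669, edgeR). The others that the naming rule covers were Hspa5 (-0.30 ± 0.13), Xbp1 (-0.22 ± 0.14), Atf4 (-0.32 ± 0.13), Ddit3 (-0.07 ± 0.11) and Asns (-0.43 ± 0.17), none of which passed.

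HFLF against HF in eWAT gave 17 of the 34 genes lower and 3 higher (edgeR), beside 25.4% of all genes, 14.7% lower and 10.7% higher. The median log2 fold change was -0.34, and groups did not overlap in 8 genes, all lower in HFLF, beside 9.44% of all genes. This comparison shares the HF libraries with the one of HF against LF.

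Of the chaperones 6 of 7 fell, with both lectin chaperones and 4 of 5 disulfide genes. Hspa5 was at 354.1 to 487.3 CPM in HFLF (median 448.1), below every HF library, with a log2 fold change of -0.76 ± 0.13 (adjusted p = 0.00124, edgeR). Calr was at 451.8 to 598.8 CPM in HFLF and Pdia3 at 283.8 to 343.4 CPM, both below every HF library, at -0.69 ± 0.12 and -0.59 ± 0.10 on the log2 scale. Dnajb9, a co-chaperone that keeps IRE1 inactive, was at 32.7 to 42.42 CPM in HFLF and 43.91 to 65.22 CPM in HF, at -0.56 ± 0.11 without overlap. Manf (-0.76 ± 0.14), Dnajb11 (-0.48 ± 0.09), Pdia6 (-0.36 ± 0.08) and Hsp90b1 (-0.41 ± 0.10) were without overlap as well. The log2 fold changes of Sdf2l1 and P4hb were -1.25 ± 0.26 and -0.36 ± 0.08.

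Ddit3 and Atf6 were lower by edgeR, at -0.50 ± 0.11 and -0.27 ± 0.06 on the log2 scale. The 3 genes that rose were Xbp1, Asns and Derl1. Asns was at 34.17 to 57.03 CPM in HFLF (median 53.1), at 0.58 ± 0.17 on the log2 scale (adjusted p = 0.021, edgeR), and Xbp1 at 205.7 to 332.3 CPM (median 236.3), at 0.41 ± 0.14 (adjusted p = 0.0355, edgeR). The Xbp1 call was lost when any of 9 of the 12 HF and HFLF libraries was left out. Herpud1, at 0.03 ± 0.08, and Atf4, at -0.27 ± 0.13, did not pass. Without the 6 eWAT libraries 7 of the 20 calls remained (Hspa5, Dnajb9, Calr, Pdia3, Pdia6, Manf and Derl1), Edem1 passed as well, and Xbp1 and Asns did not. The median over the 34 genes was -0.33 in that fit, where 622 of all eWAT genes were higher and 768 lower.

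The difference between tissues was tested directly, as the liver change minus the eWAT change in 1 edgeR fit of all 36 libraries over the 13206 genes in both tables. For HF against LF 26 of the 34 genes had a lower change in liver and 1, Derl1, a higher one, beside 45.6% of all genes. Edem1 had the smallest p of the 34, with a difference of -1.38 ± 0.17 in log2 (adjusted p = 9.41e-07, edgeR). Sdf2l1 (-2.16 ± 0.39), Wfs1 (-2.12 ± 0.40), Ero1lb (-1.78 ± 0.33), Hspa5 (-1.51 ± 0.26), Dnajb11 (-1.03 ± 0.18), Sel1l (-0.77 ± 0.15) and Atf6 (-0.75 ± 0.11) had the next smallest p-values. Ddit3 (-0.72 ± 0.22) and Atf4 (-0.43 ± 0.18, adjusted p = 0.0458, edgeR) also passed. Xbp1, which was lower in HF in both tissues, did not (-0.39 ± 0.23, adjusted p = 0.161, edgeR), and neither did Herpud1 (-0.01 ± 0.23) or Asns (-0.48 ± 0.59).

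**Figure D5:**
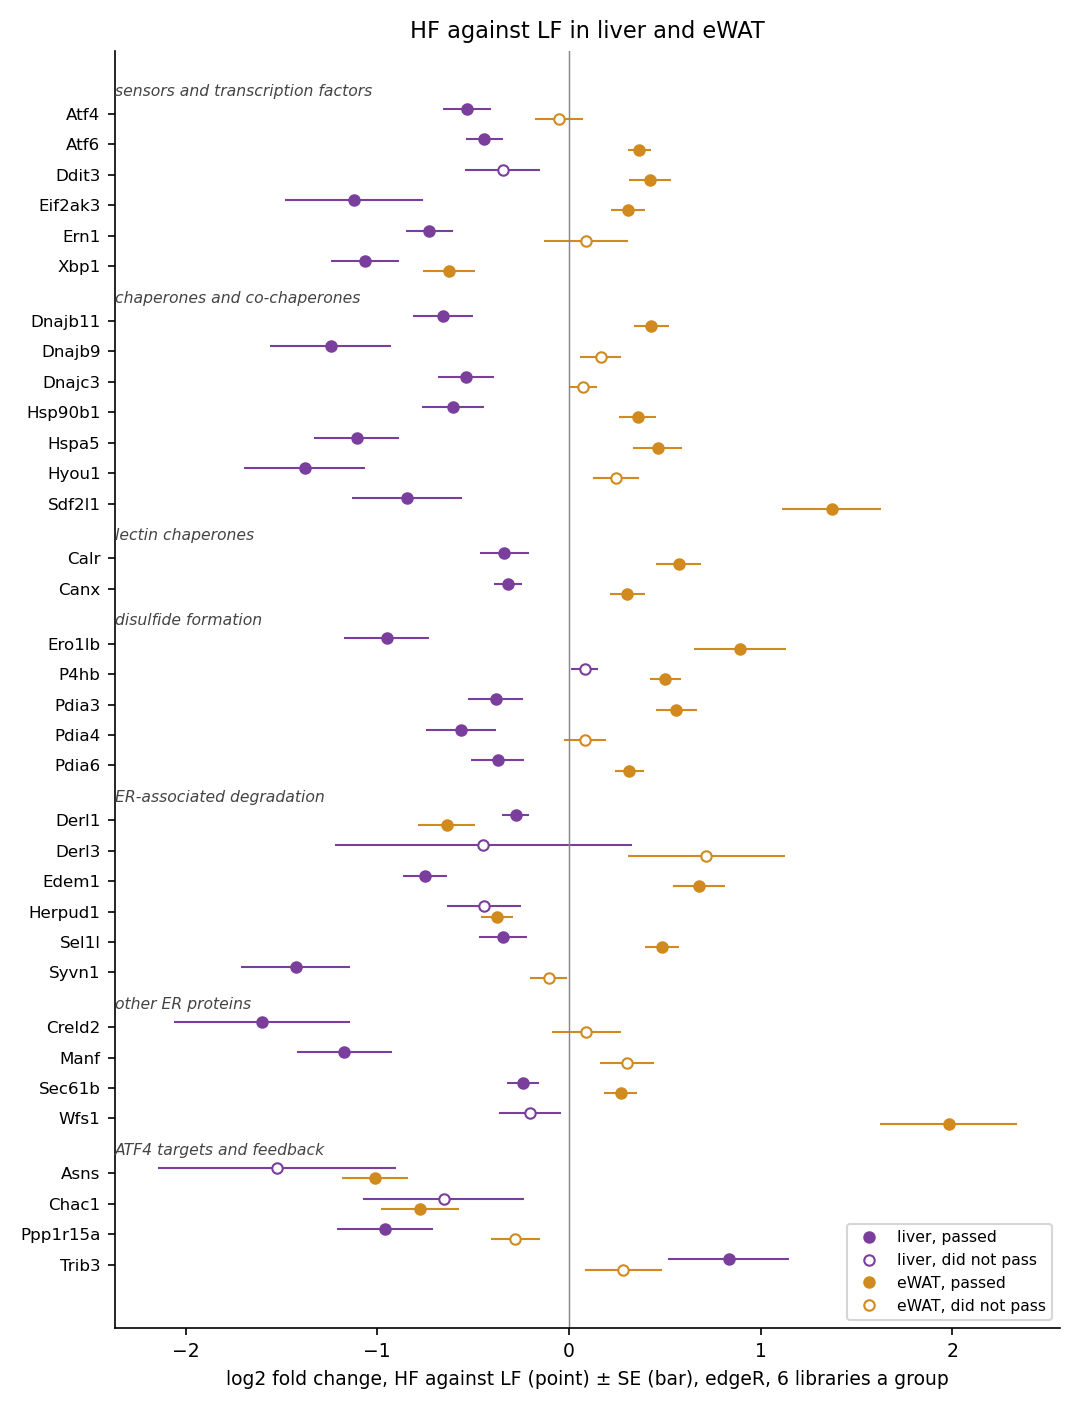
Points give the log2 fold change of HF against LF and bars its SE, in liver (purple) and eWAT (orange), with filled points where edgeR's adjusted p was under 0.05. Of the 34 liver points 26 filled ones lie left of 0, and of the eWAT points 17 filled ones lie right of it. Xbp1, Derl1, Herpud1, Asns, Chac1, Syvn1, Ppp1r15a and Atf4 lie left of 0 in both.

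Without liver LF libraries 1 to 4, 17 of the 27 tissue differences of HF against LF remained, among them Hspa5, Edem1, Sdf2l1, Wfs1, Ero1lb, Dnajb11, Sel1l, Atf6 and Ddit3. Without the 6 eWAT libraries 24 remained, and without both sets 14. Over all 13206 genes, 1607 had a higher and 1418 a lower change in liver without those liver libraries. These numbers were 2401 and 2800 without the eWAT libraries, and 1350 and 1152 without both. For HFLF against LF 13 genes had a lower change in liver and 0 a higher one, beside 8.56% of all genes, the smallest p being that of Edem1 (-0.94 ± 0.17). Without liver LF libraries 1 to 4 none of the 13 remained, and without the 6 eWAT libraries Dnajb11, Edem1 and Sel1l did, with a median difference of -0.68 over the 34 genes beside -0.66 with all libraries. Over all genes 655 had a higher and 475 a lower change in liver with all libraries. These numbers were 0 and 1 without the liver libraries, and 176 and 135 without the eWAT libraries. Hspa5 did not pass with all libraries (-0.79 ± 0.26, adjusted p = 0.0543, edgeR). For HFLF against HF 3 genes had a higher change in liver, Atf6 (0.46 ± 0.11), Wfs1 (1.35 ± 0.40) and Atf4 (0.53 ± 0.18), and 1 a lower one, Derl1 (-0.55 ± 0.16), beside 18% of all genes. When the 6 eWAT libraries were left out Wfs1 no longer passed and Ern1 did, with a higher change in liver.

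Changes were also counted by promoter element, and are read beside the share of all genes that passed. For HF against LF this share was 18.5% lower and 16.3% higher in liver, and 20.2% lower and 20.6% higher in eWAT. In liver HF against LF, 9 of the 10 members with it were lower and 0 higher, with a median log2 fold change of -0.57, and of the 20 with a window but without it 13 were lower and 1 higher, with a median of -0.61. Without LF libraries 1 to 4 these counts were 0 of the 10 (median -0.43) and 1 lower of the 20 (median -0.29). In that fit 158 of all 14052 liver genes were higher and 139 lower. In eWAT HF against LF, 6 of the 10 were higher and 0 lower (median 0.34), and of the 20 others 10 were higher and 4 lower (median 0.28). Without the 6 eWAT libraries 2 of the 10 were higher and 0 lower (median 0.35), and 8 of the 20 were higher and 2 lower (median 0.27). In that fit 2770 of all 16690 eWAT genes were higher and 2433 lower. Of the 4 members with the TGATGNAA core, Asns, Chac1 and Herpud1, which hold it before their start, were among the 5 that fell in eWAT. This was noticed after their values were seen, and Asns alone of these 3 passed without the 6 libraries. None of these 3 passed in liver HF against LF. Trib3 holds the core 14 to 21 bases after its start. It did not pass in eWAT, with a median of 6.233 CPM in LF and 8.894 CPM in HF. Of the 27 other genes with the ER stress element 10 were in the liver table, of which 4 were lower and 0 higher in HF (median -0.18), and 1 was lower without LF libraries 1 to 4 (median -0.36).

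Other genes of the pathway were counted from lists that do not hold the 34 genes, and are read beside the share of all genes that passed. In liver HF against LF that share was 34.8%, 18.5% lower and 16.3% higher. In liver HF against LF, translocation and N-glycosylation genes passed in 24 of 34, all lower, among them Sec61a1 (-0.62 ± 0.09), the pore of the translocon, Ssr2 (-0.51 ± 0.08) and Tram1 (-0.46 ± 0.07). Further ER folding genes passed in 13 of 28, all lower, among them the disulfide isomerase Pdia5 (-1.02 ± 0.20). Further degradation genes were lower in 15 and higher in 1 of 28, and ER to Golgi transport genes lower in 11 and higher in 1 of 29. Further ATF4 targets were lower in 20 and higher in 3 of 38, among them the transcription factor gene Cebpg (-0.66 ± 0.08) and the amino acid transporter Slc38a2 (-1.34 ± 0.20). Further sensors and regulators were lower in 7 and higher in 1 of 27. The number that passed was near the share of all genes for the sensors (8 of 27) and for transport (12 of 29), though both held more lower than higher genes. Without LF libraries 1 to 4 there was 1 call in translocation and 2 among the ATF4 targets, all lower, and 0 in the other 4 lists (edgeR). Of all liver genes 158 were higher and 139 lower in that fit.

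Cytosolic heat shock genes, which belong to another stress response, were lower in HF in 16 of 19, with Bag3 at -1.18 ± 0.17. Their summed level was 3974 to 5626 CPM in LF, 2786 to 3681 CPM in HF and 2617 to 3614 CPM in HFLF, with every LF library above all others. Their median log2 fold change of HF against LF was -0.50, and -0.48 without LF libraries 1 to 4, with 4 calls. The liver difference in folding genes was accompanied by one in chaperones outside the ER.

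In eWAT HF against LF, where 40.8% of all genes passed, 20.6% higher and 20.2% lower, further ER folding genes were higher in 15 and lower in 2 of 29, among them Calu (0.81 ± 0.09), a calcium-binding protein, and P3h1 (0.86 ± 0.11), a collagen prolyl hydroxylase. ER to Golgi transport genes were higher in 16 and lower in 1 of 30, led by the coat protein gene Sec24d (0.69 ± 0.08), and translocation genes higher in 14 and lower in 3 of 34. Further degradation genes were higher in 5 and lower in 5 of 28, near or under the share of all genes in each direction. Further ATF4 targets were higher in 13 and lower in 5 of 41, with Atf3 at 3.84 ± 0.64 and Gpt2 at -1.34 ± 0.24. Further sensors and regulators were higher in 12 and lower in 4 of 27, and cytosolic heat shock genes higher in 2 and lower in 6 of 20. Without the 6 eWAT libraries the folding genes were higher in 14 and lower in 2, transport genes higher in 7 and lower in 2, and degradation genes higher in 2 and lower in 7. In the same fit translocation genes were higher in 4 and lower in 3, sensors and regulators higher in 7 and lower in 1, ATF4 targets higher in 8 and lower in 7, and heat shock genes higher in 0 and lower in 8. Of all eWAT genes 2770 were higher and 2433 lower there.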

How the data were processed

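RNA of 36 libraries (liver and eWAT, 3 diets, 6 libraries each) was extracted with TRI reagent and sequenced on a NovaSeq instrument, per the labels' protocols. The submitters' processing notes name STAR and build GRCm38.p6. Counter, annotation and strandedness were not given in the sources used here. Counts of genes that share exon bases with another annotated gene may therefore hold its reads. Besides Ddit3, Syvn1 and Manf, these genes were Hsp90b1, Pdia3, Pdia4, Pdia6, Ppp1r15a, Eif2ak3 and Dnajb9. The authors deposited raw counts per gene, in which every gene passed 0.5 CPM in at least 6 libraries (tested on the tables). A deposited table named RPKM was not used, since the length it implied for a gene varied between libraries.

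For each tissue, 1 model with the 3 diets was fitted in edgeR 4.0.16 (R 4.3.3; quasi-likelihood, robust, TMM), with Benjamini-Hochberg adjustment over all genes and calls at 0.05. Levels are TMM-scaled CPM. Symbols and exon lengths came from GENCODE M21, which held 14034 of 14052 liver and 16668 of 16690 eWAT genes. Log2 fold changes are printed for members called (at most 12 with the smallest p per comparison, 8 for tissue differences) and for Hspa5, Xbp1, Atf4, Ddit3, Herpud1 and Asns. From other lists at most 3 genes with the smallest p are named. The members, lists, rules and some alternatives were chosen with earlier results of these data known. Alternatives were other size factors, DESeq2 1.42.0, limma 3.58.1 voom with quality weights, stricter filters, a fit of only the 2 diets at issue, a block for the replicate number, TMM per tissue, and leaving out libraries. The fits of HF against LF were run on simulated counts, which held few changed genes and no libraries that stood apart, unlike these data. There 44.8% of 1.5-fold changes were called in liver and 32.8% in eWAT. Of 4-fold changes 93.9% and 86.4% were called, with 4 and 10 false calls. No pair of libraries was a near copy (highest correlation 0.9922).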

Additional observations from a re-analysis of the deposited data

Results flagged for a closer look

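Of 204 groups of 6 libraries (34 genes, 2 tissues, 3 diets), 13 held a library far from the other 5 by Dixon's criterion, where chance gives about 1 in 20. In liver these were Edem1 in HF library 1 (131.7 CPM, the lowest, next 158.9), Chac1 in HF library 3 (14.27 CPM) and Derl3 in HF library 5 (61.78 CPM, next 17.99). HFLF library 4 was far above its group in Atf4 (114.5 CPM), Creld2 (128 CPM) and Derl3 (25.01 CPM). In eWAT they were Ero1lb in LF library 4 (19.76 CPM), Hyou1 in HF library 3 (195.3 CPM), Herpud1 and Derl3 in HF library 2 (86.6 and 8.285 CPM), Xbp1 in HFLF library 4 (332.3 CPM), and Sdf2l1 and Wfs1 in HFLF library 2 (33.85 and 92.46 CPM). The cell type markers of eWAT HF libraries 2 and 3 are given with the results above, and HFLF library 2 held the most macrophage markers of its group (2102 CPM, others 717.8 to 1049 CPM).

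The change with diet differed between liver and eWAT by the interaction test of edgeR, as liver minus eWAT in log2. For HF against LF the named differences were Edem1 -1.375, Atf6 -0.752, Hspa5 -1.51, Dnajb11 -1.03, Sdf2l1 -2.16, Ero1lb -1.78, Wfs1 -2.125, Sel1l -0.774, Atf4 -0.427 and Ddit3 -0.716. For HFLF against LF they were Edem1 -0.944, Syvn1 -1.41, Dnajb11 -0.808, Sel1l -0.652, Hyou1 -1.22, Eif2ak3 -1.30, Hsp90b1 -0.694 and Sec61b -0.372. For HFLF against HF they were Atf6 0.457, Derl1 -0.5465, Wfs1 1.35 and Atf4 0.527.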

How the results depend on the processing

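Over 76 single-gene log2 fold changes within a tissue, leaving out 1 library kept direction and side of the threshold in 871 refits, lost the call in 17, gained one in 12 and turned the sign in 12. Tissue differences were not refitted in this way. For the other alternatives, over 112 fold changes and tissue differences, these numbers were 762, 67, 23 and 14. Counts of genes called moved by over 1.5 times as follows, and the cause was not tested beyond the smaller number of libraries. Without liver LF libraries 1 to 4 there were 297 genes and 1 member for HF against LF and 26 genes and 0 members for HFLF against LF; without libraries 1 and 2 there were 2742 and 1396 genes. For liver HFLF against HF, DESeq2 called 1312 genes, voom 1758 genes and 4 members, the replicate block 444 genes and a fit of only the 2 groups 1181 genes. Leaving out 1 library gave 215 to 1036 genes and 1 to 4 members there. For eWAT HFLF against LF, DESeq2 called 704 genes and 4 members, voom 679 genes and 8 members, the replicate block 15 genes, the 2 groups alone 50 genes, and leaving out 1 library 0 to 341 genes and 0 to 3 members. Without the 6 eWAT libraries, chosen after seeing the data, there were 14 members for HF against LF, 6 genes for HFLF against LF, and 1390 genes and 8 members for HFLF against HF. Tissue differences of HF against LF numbered 3025 genes and 17 members without liver LF libraries 1 to 4 and 2502 and 14 without both sets; those of HFLF against LF numbered 1 and 0 without the liver libraries, 311 and 3 without the eWAT libraries, and 14 and 0 without both.

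Upper-quartile factors shifted the split of liver calls to 2952 higher and 1869 lower for HF against LF, and to 1866 and 1158 for HFLF against LF, with 21 and 24 members lower. In eWAT they gave 3051 higher and 3911 lower for HF against LF and 2352 and 2033 for HFLF against HF. LF libraries 1 to 6 lay above the liver range in 17, 24, 14, 23, 6 and 13 members on unscaled CPM, beside 15.9%, 13.4%, 8.28%, 10.6%, 4.69% and 7.22% of all liver genes.

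Values that turned sign were small or did not pass. Without liver LF libraries 1 to 4, Atf4 was 0.021 and Asns 0.066 for HFLF against LF, Asns 0.94 for the tissue difference of HF against LF, and Xbp1 0.097 and Asns 0.51 for that of HFLF against LF. Without both sets these were Xbp1 0.037 and Asns 1.005 (HF against LF) and Xbp1 0.35 and Asns 0.69 (HFLF against LF), and without the eWAT libraries Xbp1 was 0.0091. For liver HFLF against HF, leaving out 1 library gave -0.17 to 0.16 for Hspa5 and -0.094 to 0.65 for Asns. In eWAT, leaving out 1 library gave -0.12 to 0.11 for Atf4 (HF against LF, above 0 without LF library 2) and -0.011 to 0.095 for Herpud1 (HFLF against HF, below 0 without HFLF library 5), which was -0.0064 by voom and -0.0098 without the 6 libraries. By voom with the replicate block, Herpud1 was 0.018 for the tissue difference of HF against LF and Asns 0.23 for that of HFLF against HF.

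The labels do not say that libraries with the same replicate number share more than the number, so the replicate block was an alternative only. Deviations of libraries with the same number had correlations of -0.5307 to 0.5666, with 2 or 3 of 6 pairs over 0.1 in each comparison. With the block the members called in liver were 1 higher and 26 lower (HF against LF), 26 lower (HFLF against LF) and 2 higher and 1 lower (HFLF against HF). In eWAT they were 17 higher and 5 lower, 0, and 2 higher and 17 lower. Low counts limit Asns, Trib3, Chac1 and Ddit3 in liver, whose means per diet were 2.417 to 12.14 CPM. Derl3 in liver had a wide spread, from 2.895 to 61.78 CPM in HF.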

Other observations

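Within a diet several members had their highest level in the same library, which was noticed after the values were seen and is given as a description without a test. In liver LF, library 4 was the highest of 6 in Dnajb11, Dnajc3, Hsp90b1, Calr, Canx, Pdia3, Pdia4, Pdia6, Sdf2l1, Ero1lb and Derl3, 11 of the 34 genes, beside 11.4% of all liver genes. In HF the library that was highest in 10 of these genes, all but Ero1lb, was library 5, which was the highest in 12 members, beside 21.3% of all genes. In HFLF library 4 was the highest in 18 members, beside 23.2% of all genes.

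Other chaperone and degradation genes had their highest level elsewhere. Hspa5, Hyou1, Syvn1 and Manf were highest in library 2 of LF, where 13 members were highest beside 14.8% of all genes, and in library 3 of HF, where 15 were, beside 15.6%. In HFLF library 4 was the highest in these 4 genes and in 9 of the 11 above, Calr and Canx being highest in library 2. Library 1 of LF was the highest in 5 of the 34 genes, a smaller share than its 21.6% of all genes. These 5 were Atf4, Ddit3, Chac1, Ppp1r15a and Eif2ak3, whereas Asns was highest in library 3 and Trib3 in library 6. Atf4, Ddit3, Chac1, Ppp1r15a and Eif2ak3 did not share a highest library in the other diets: it was 6, 3, 3, 4 and 1 in HF and 4, 2, 5, 5 and 1 in HFLF.

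The spread within a diet was wide for some members. Derl3 in liver HF ran from 2.895 to 61.78 CPM and Creld2 in liver HFLF from 27.56 to 128 CPM, whereas P4hb in liver HFLF ran from 1230 to 1340 CPM. The median ratio of the highest to the lowest library over the 34 genes was 1.817 in liver LF, 1.758 in liver HF and 1.672 in liver HFLF, and 1.436, 1.567 and 1.311 in eWAT.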
